A study of Homo sapiens with 6 samples.

Results

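The genes examined here are the transcriptional coactivators YAP1 and WWTR1, the latter encoding TAZ, their DNA-binding partner TEAD1, and 7 genes known as targets or partners of this pathway, CCN1, CCN2, ANKRD1, AMOTL2, LATS2, AJUBA and AXL. The 10 genes were taken by name from a table of 61731 genes and loci, and each matched 1 Ensembl identifier. The table holds 6 RNA libraries of U87-MG, an established human glioblastoma cell line grown in serum, 3 from negative control cells (NC, genotype label "Normal control") and 3 with the genotype label "CHRM Knockdown" (KD), in which lentivirus was used against CHRM3. CHRM3 encodes a muscarinic acetylcholine receptor, and the comparison asks which transcripts differ after its knockdown. Which knockdown sequence the KD cells carried is not stated, and nothing says that libraries sharing a label were grown apart, so p-values here measure a spread that may be technical. Groups are called KD and NC by these labels alone. In bulk RNA, fewer cells of a type and less RNA per cell cannot be told apart.

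YAP and TAZ carry no DNA-binding domain and act on genes by binding TEAD factors in the nucleus. The Hippo kinase cascade, in which STK3 and STK4 act on LATS1 and LATS2, phosphorylates YAP and TAZ and holds them in the cytoplasm. Low cell density, a stiff matrix, tension in the actin cytoskeleton and some G protein-coupled receptors release them. CCN1, CCN2 and ANKRD1 are the targets most often used to read their activity, while LATS2 and AMOTL2 are targets that feed back on the pathway.

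TEAD factors recognise the core motif GGAATG, which reads CATTCC on the other strand. The motif was searched on both strands in RefSeq promoter windows (GRCh38.p14) of 250 bases before and 50 bases after a transcription start. Copies on 1 strand could share at most 1 base, and none of those found overlapped. Windows were found for 8 of the 10 genes, namely YAP1, WWTR1, CCN2, ANKRD1, AMOTL2, LATS2, AJUBA and AXL, 12 windows in all because 4 of these genes have 2 starts. A copy was found in at least 1 window of 7 of the 8 genes, and in 7 of the 12 windows, whereas 14.03% of all 35116 promoter windows hold it. WWTR1 had no copy in either window, and the copy of LATS2 lay after its start. For AMOTL2, AJUBA and AXL the first start had no copy, and the copy lay at the second start, within the annotated gene. CCN2 had 3 copies in 1 window, a number reached by 45 of the 35116 windows (0.128%), and ANKRD1 had 2. The stretches shown are those of CCN2, YAP1 and AMOTL2, whose level fell, of ANKRD1, which was nearly silent, and of AXL, which did not pass the test. Those of AJUBA (second start) and LATS2, which did not pass either, are left out. Of the 16 further target genes counted below, 11 had a window, and 4 of these windows held a copy. Among these genes PTPN14, which rose, held 1, while IGFBP3 and MYOF, which rose, and F3 and CCDC80, which fell, held none. The other windows with a copy were those of FOXF2 and NUAK2, which were not tested, and TGFB2, which did not pass. CRIM1, which rose, had no window. Whether the motif goes with a change was not tested. Each stretch shown is written 5′ to 3′ on the strand of the gene, with the motif in capitals.
CCN2 (chr6:131951450-131951553, minus strand): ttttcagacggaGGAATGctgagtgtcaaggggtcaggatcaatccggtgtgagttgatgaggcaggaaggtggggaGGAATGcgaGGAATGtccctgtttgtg
ANKRD1, distal copy (chr10:90921290-90921319, minus strand): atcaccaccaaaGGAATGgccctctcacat
ANKRD1, proximal copy (chr10:90921198-90921227, minus strand): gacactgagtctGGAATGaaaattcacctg
YAP1 (chr11:102110273-102110302, plus strand): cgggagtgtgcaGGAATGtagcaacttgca
AMOTL2, second start (chr3:134374499-134374528, minus strand): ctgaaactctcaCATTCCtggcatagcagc
AXL, second start (chr19:41226531-41226560, plus strand): cagactttgcacCATTCCactccctccgct
The copies of CCN2 began at positions -169, -104 and -95 relative to the start. The stretches of YAP1, of AMOTL2 and of the proximal copy of ANKRD1 overlap an annotated exon. A match of these letters is a description of the window and does not show that a factor binds there.

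The libraries were checked before the comparison. CHRM3 was between 0.01 and 0.13 TPM in all 6 libraries, with the same highest value of 0.13 TPM in a control and in a KD library, so a reduction was not detectable and each direction rests on the labels. TPM, the length-corrected share that a gene takes of its library's transcripts, carries no information on read number, and depth is unknown here. The mesenchymal markers VIM, FN1, CD44 and SPARC were at 458.95 TPM or more in every library, and NES was at 1.98 to 4.01 TPM. VIM, SPARC and NES were higher and CD44 and FN1 lower in KD past the threshold defined below. The glial markers OLIG2, SOX2, S100B and PDGFRA stayed under 1 TPM throughout, and GFAP did not exceed 1.46 TPM. Of the leukocyte markers, TYROBP and CD3E were at 0 throughout, PTPRC, CD14 and AIF1 did not exceed 0.28 TPM, and LAPTM5 was 0.83 to 0.91 TPM in NC and 0.38 to 0.52 TPM in KD. The summed level of 5 endothelial markers was 3.78 to 4.60 TPM in NC and 1.54 to 2.02 TPM in KD libraries, most of it KDR (3.37 and 1.4 TPM on average, the only one of them tested and lower past the threshold), while PECAM1, CDH5 and VWF did not exceed 0.17 TPM. The summed level of 5 epithelial markers was 1.1 to 1.33 TPM in NC and 1.66 to 1.86 TPM in KD. Mitochondrial transcripts took 5.32 to 5.47% of the TPM in NC and 4.41 to 4.87% in KD, without overlap. Of 12 proliferation genes, 11 were lower in KD and 0 higher past the threshold (median log2 fold change -0.35), and 11 were lower with median-of-ratios scaling. Over all tested genes 24.0% were lower and 12.1% higher, and 16.4% were lower with median-of-ratios scaling. The part of these markers, genes and shares in the results that follow was not tested.

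The members differed widely in level. In the negative control, CCN1 was the most abundant at 84.1 ± 2.12 TPM (SD, n = 3, as for all means below), followed by AXL (72.0 ± 1.20 TPM), CCN2 (42.2 ± 0.241 TPM), YAP1 (29.96 ± 0.564 TPM), AMOTL2 (27.3 ± 0.225 TPM), WWTR1 (25.7 ± 1.90 TPM) and TEAD1 (11.9 ± 0.637 TPM). LATS2 (4.95 ± 0.27 TPM) and AJUBA (3.26 ± 0.346 TPM) were low, and ANKRD1 (0.263 ± 0.0802 TPM) stayed under 1 TPM. AMOTL2 and WWTR1 were the only neighbours in this order whose control values overlapped. In the KD libraries no neighbours overlapped, and the order differed in its upper part, with AXL first, then CCN1, WWTR1, YAP1, CCN2 and AMOTL2. AXL was below CCN1 in each control, at 0.821 to 0.876 of its level, and above it in each KD library, at 1.09 to 1.15 times its level.

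**Figure D1:**
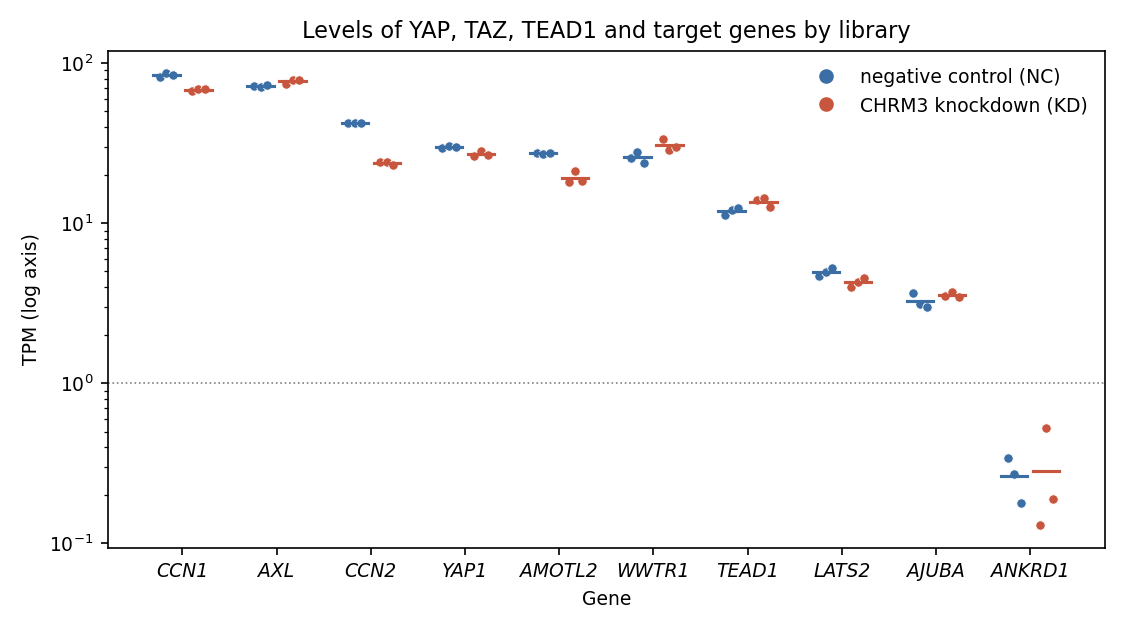
TPM on a log axis for the 10 genes in each library, blue points for the 3 negative controls and red points for the 3 KD libraries, with a bar at each mean; the dotted line marks 1 TPM. The groups are apart for 8 genes and overlap for AJUBA and ANKRD1, and CCN2 shows the widest gap.

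KD was compared with NC by limma on the log2(TPM + 1) scale, on which the change of a weakly expressed gene is understated. The test took in the 13722 genes averaging 1 TPM or more, p-values were adjusted over all of them by Benjamini-Hochberg, and a gene counted as changed at an adjusted p under 0.05. Of the 10 genes, 9 were tested, of which CCN2, AMOTL2, CCN1 and YAP1 were lower, none was higher and 5 did not pass. The 4 of 9 are 44.4%, beside 24.0% of all tested genes that were lower, 12.1% that were higher and 36.1% that changed either way. The members and the lists below were chosen with earlier results of these data known, so such shares are only descriptive. None of the 4 reached a log2 fold change of 1 in size, as 1.87% of tested genes did. The median log2 fold change was -0.14 over the 9 genes and -0.06 over all tested genes. The values of the groups did not overlap for 8 of the 9, against 50.2% of all tested genes. Scaling decided part of this count: after median-of-ratios scaling, which moves the median of all genes to 0.00, 3 members were lower (CCN2, AMOTL2 and CCN1) and 3 higher (WWTR1, TEAD1 and AXL), with 16.4% of all genes lower and 16.8% higher.

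CCN2, formerly CTGF, encodes a secreted matricellular protein that promotes matrix production and is a standard YAP target. It lies on chromosome 6 from 131948176 to 131951373 (GRCh38, minus strand) and carries the 3 motif copies shown above. Its level was 42.06, 42.11 and 42.50 TPM in control replicates 1, 2 and 3, and 24.16, 24.08 and 23.23 TPM in KD replicates 1, 2 and 3. Every KD library was far below every control, and the mean fell by 43.6%. On the log2 scale the change was -0.80 ± 0.0320 (SE; limma adjusted p = 1.76e-05). This was the largest change among the tested members, and CCN2 ranked 377 of 13722 tested genes by the size of its fall. It stayed between -0.82 and -0.72 in all 15 alternative fits, each past the threshold.

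CCN1, formerly CYR61, encodes a relative of CCN2 that is likewise secreted into the matrix, where it binds integrins. It was 82.07, 86.31 and 84.01 TPM in NC and 67.35, 68.50 and 69.19 TPM in KD. The groups were apart, and the mean fell by 18.8%, a log2 change of -0.30 ± 0.0287 (SE; limma adjusted p = 0.000534). Within each library the level of CCN1 was 1.95 to 2.05 times that of CCN2 in NC and 2.79 to 2.98 times in KD, ranges that did not overlap (exact two-sided permutation p = 0.10, adjusted p = 0.15). With 3 libraries against 3 this p cannot fall below 0.10, so no ratio or share tested this way, here or below, could pass.

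AMOTL2 encodes an angiomotin-like scaffold that binds YAP at cell junctions and is itself induced by YAP. Its controls were tightly grouped at 27.29, 27.04 and 27.49 TPM, and the KD libraries were 18.01, 21.19 and 18.44 TPM. The second of these was the highest of its group and still below every control. The mean fell by 29.6%, a log2 change of -0.49 ± 0.0637 (SE; limma adjusted p = 0.00173). CCN1 and AMOTL2 passed in all 15 alternative fits.

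ANKRD1, which encodes an ankyrin repeat protein of striated muscle and is a strong YAP target in many adherent cells, was nearly silent here. Its level was 0.34, 0.27 and 0.18 TPM in NC and 0.13, 0.53 and 0.19 TPM in KD. The groups overlapped, and KD replicate 2 held the highest value. The gene was below the limit for testing, and in a fit with no limit on low values its log2 fold change was 0.01 (limma adjusted p = 0.974). A difference in ANKRD1 was not detectable at this level.

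YAP1 was 29.34, 30.44 and 30.11 TPM in NC and 26.28, 28.24 and 26.68 TPM in KD. The groups did not overlap, but the mean only fell by 9.67%. The log2 change was -0.14 ± 0.0400 (SE; limma adjusted p = 0.0338). Of 6 fits that omitted a library, YAP1 passed in that without KD replicate 2 (adjusted p = 0.0264) and in no other, and after median-of-ratios scaling its change was -0.07 (adjusted p = 0.188). Leaving out control replicates 1, 2 and 3 gave adjusted p of 0.0613, 0.0991 and 0.0891, and leaving out KD replicates 1 and 3 gave 0.0929 and 0.0896 for YAP1.

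WWTR1 was 25.66, 27.68 and 23.88 TPM in NC and 33.51, 28.49 and 29.85 TPM in KD. All 3 KD values were above the controls, by little between control replicate 2 and KD replicate 2. Its log2 fold change was 0.24 (95% interval 0.06 to 0.43, limma adjusted p = 0.0506), just outside the threshold. WWTR1 passed in 7 of the 15 alternative fits, among them both other pseudocounts, median-of-ratios scaling and the fits without control replicate 2 (adjusted p = 0.0448) or KD replicate 2 (adjusted p = 0.0484). The strand used in the counting is not stated, and an overlapping antisense gene, WWTR1-AS1, was at 1.28 TPM in NC and 0.95 TPM in KD on average.

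The order of the 2 coactivator transcripts differed between the groups. The log2 ratio of WWTR1 to YAP1, which does not depend on the scaling between libraries, was -0.19, -0.14 and -0.33 in NC and 0.35, 0.01 and 0.16 in KD. YAP1 was thus the more abundant transcript in every control and WWTR1 in every KD library, although in KD replicate 2 they were nearly equal. The difference of 0.40 had an exact two-sided permutation p of 0.10, the smallest that 3 libraries against 3 allow, and 0.15 after adjustment over 6 such measures. The sum of the 2 transcripts was 55.7 ± 2.15 TPM in NC and 57.7 ± 1.83 TPM in KD, with overlapping values.

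TEAD1, the DNA-binding member, was 11.18, 12.02 and 12.43 TPM in NC and 13.98, 14.29 and 12.69 TPM in KD. The groups were apart by a narrow margin, set by control replicate 3 and KD replicate 3. Its log2 fold change of 0.19 (95% interval 0.03 to 0.34) did not pass (limma adjusted p = 0.0646), but did without KD replicate 3 (adjusted p = 0.0412). TEAD1 was not the main TEAD transcript of these cells. TEAD4 held 55.9% of the summed TPM of TEAD1 to TEAD4 in NC and 63.8% in KD on average, and TEAD1 held 19.2 ± 1.28% and 20.8 ± 1.05%, with overlapping values (exact two-sided permutation p = 0.20, adjusted p = 0.24).

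Of the feedback and regulatory members, LATS2 encodes a kinase that phosphorylates YAP and TAZ. It was 4.68, 4.95 and 5.22 TPM in NC and 3.99, 4.32 and 4.53 TPM in KD. The groups did not overlap, yet its log2 fold change of -0.17 (95% interval -0.36 to 0.01) did not pass (limma adjusted p = 0.128), nor did it in any of the 14 alternative fits that tested it. Its relative LATS1 was 5.09 ± 0.135 TPM and 5.36 ± 0.367 TPM, and LATS2 stood at 0.919 of the level of LATS1 in NC replicate 1 and at the same level in the other two controls, and at 0.702 to 0.871 in KD (exact two-sided permutation p = 0.10, adjusted p = 0.15).

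AJUBA encodes a LIM protein that binds LATS kinases at tensed junctions. Its values of 3.65, 3.12 and 3 TPM in NC and 3.49, 3.73 and 3.46 TPM in KD overlapped. The log2 fold change was 0.10 (95% interval -0.12 to 0.32, limma adjusted p = 0.427). A protein-coding gene on the same strand, ENSG00000259132, overlaps AJUBA and averaged 1.03 TPM in NC and 0.377 TPM in KD, so the split of reads between them is uncertain.

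AXL encodes a receptor tyrosine kinase bound by GAS6 and is a YAP target linked to invasion. It was 71.88, 70.90 and 73.28 TPM in NC and 73.64, 78.66 and 78.50 TPM in KD. The groups touched without overlapping, with control replicate 3 just below KD replicate 1. The log2 fold change of 0.09 (95% interval 0.01 to 0.18) did not pass (limma adjusted p = 0.0785) but passed without KD replicate 1 (adjusted p = 0.027) and with median-of-ratios scaling (adjusted p = 0.0113). Both relatives of AXL in the TAM receptor family fell, TYRO3 from 39.2 ± 4.003 to 29.8 ± 1.74 TPM (limma adjusted p = 0.0114) and MERTK from 19.7 ± 4.04 to 9.46 ± 3.13 TPM (adjusted p = 0.0228). The call of MERTK was lost without control replicate 2 (limma adjusted p = 0.0689) and with no limit on low values (adjusted p = 0.0641). AXL held 54.0, 53.1 and 58.1% of the TAM receptor TPM in NC and 68.6, 65.7 and 64.7% in KD, a gain of 11.2 percentage points (exact two-sided permutation p = 0.10, adjusted p = 0.15).

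**Figure D2:**
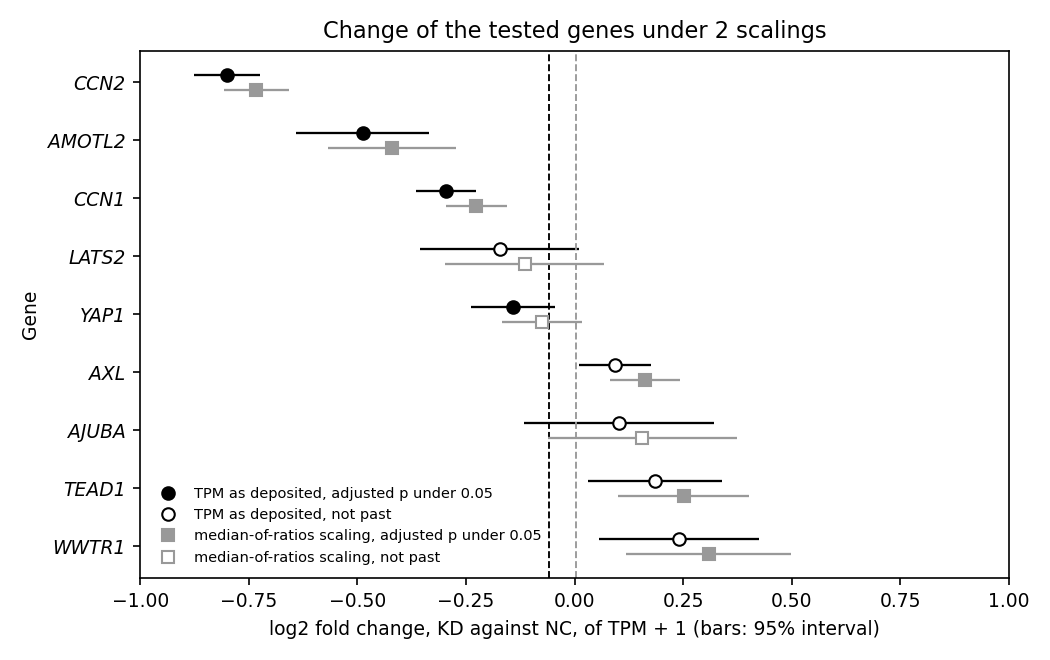
Log2 fold change of the 9 tested genes with 95% intervals, circles for TPM as deposited and squares after median-of-ratios scaling, filled where the adjusted p was under 0.05; dashed lines mark the median of all tested genes under each scaling, -0.06 and 0.00. CCN2, AMOTL2 and CCN1 are filled on the negative side under both scalings, while YAP1, AXL, TEAD1 and WWTR1 change their side of the threshold.

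The other genes of the pathway were taken from 6 lists of 56 genes, of which 46 were tested, 16 were lower and 8 higher past the threshold (34.8% and 17.4%, with 24.0% and 12.1% over all genes). After median-of-ratios scaling 11 were lower and 12 higher (16.4% and 16.8% over all genes), so the balance of directions depends on the scaling. Of 16 further genes in common use as YAP and TAZ target signatures, 14 were tested, 4 rose and 2 fell, with a median log2 fold change of 0.14 (7 higher and 1 lower after median-of-ratios scaling). IGFBP3, which encodes a carrier of insulin-like growth factors, rose most, from 48.4 ± 0.531 to 99.6 ± 2.84 TPM (log2 fold change 1.03, limma adjusted p = 5.43e-06). PTPN14, a phosphatase that restrains YAP, rose from 6.98 ± 0.183 to 11.4 ± 0.545 TPM, and MYOF, a membrane repair protein, from 76.4 ± 1.29 to 107.0 ± 2.23 TPM. The genes that fell were F3, which encodes tissue factor (70.8 ± 0.495 to 58.9 ± 1.49 TPM), and CCDC80 (137.1 ± 9.18 to 120.1 ± 5.10 TPM, adjusted p = 0.0398), the call for CCDC80 being lost on omitting any library other than NC replicate 1 (adjusted p between 0.0536 and 0.114) and after median-of-ratios scaling (adjusted p = 0.145). With TPM as deposited, the further target genes thus changed in both directions, while the members that passed were all lower. After median-of-ratios scaling the members and the further target genes each included changes in both directions.

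Among the partners of YAP, TEAD2 fell from 7.68 ± 0.889 to 4.58 ± 0.282 TPM and TEAD3 from 7.79 ± 0.327 to 5.55 ± 0.166 TPM, whereas TEAD4 rose from 34.6 ± 1.91 to 42.0 ± 3.30 TPM (limma adjusted p = 0.00281, 0.00236 and 0.0221). The call of TEAD4 was lost without control replicate 3 (limma adjusted p = 0.0646) or KD replicate 3 (adjusted p = 0.051), and with no limit on low values (adjusted p = 0.0551). Of 15 Hippo kinases and adaptors, which mostly restrain YAP and TAZ, 14 were tested, 8 fell and 0 rose (57.1% lower, beside 24.0% of all tested genes). After median-of-ratios scaling 4 fell and 0 rose, beside 16.4% lower over all genes. Without NC replicate 1 and likewise without NC replicate 3, 5 fell, beside 18.4% and 18.5% lower over all genes. The largest falls were those of FRMD6, an upstream FERM-domain protein (42.0 ± 1.99 to 22.1 ± 1.65 TPM, log2 fold change -0.90, limma adjusted p = 0.000153), SAV1, the scaffold of the STK3 and STK4 kinases (7.04 ± 1.07 to 4.67 ± 0.0666 TPM), and NF2, which encodes merlin (26.3 ± 1.03 to 21.2 ± 1.38 TPM). All 3 held in the 15 alternative fits. FRMD6 had a larger fall than any member, a difference that was not tested.

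The relatives of the other members were mixed. AMOTL1 fell, from 5.24 ± 0.200 to 3.98 ± 0.181 TPM (limma adjusted p = 0.0125), and the ratio of AMOTL2 to AMOTL1 overlapped between groups (exact two-sided permutation p = 0.30). The LIM proteins LPP and ZYX, found at focal adhesions and related to AJUBA, rose from 6.57 ± 0.705 to 9.43 ± 0.546 TPM and from 250.4 ± 2.68 to 304.9 ± 9.81 TPM. LIMD1, TRIP6 and FBLIM1 did not pass (log2 fold change -0.13, -0.08 and 0.17). Of the 6 tested genes of this list, 2 were higher and 1 lower (33.3% and 16.7%, beside 12.1% and 24.0% of all tested genes). CCN3, a further CCN gene, fell from 27.0 ± 0.603 to 21.1 ± 0.677 TPM (limma adjusted p = 0.00111), so that of the CCN genes tested CCN1, CCN2 and CCN3 were lower and CCN4 did not pass (log2 fold change 0.07, adjusted p = 0.66). GAS6, the ligand of AXL, rose from 20.2 ± 0.335 to 24.0 ± 1.15 TPM (limma adjusted p = 0.00827).

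**Figure D3:**
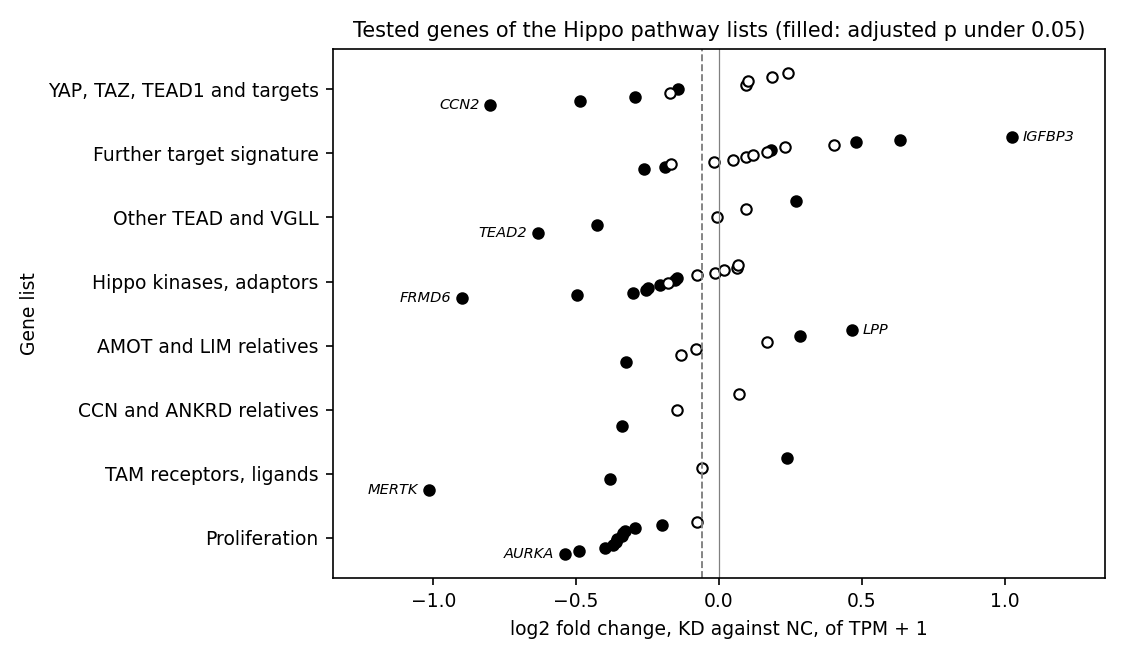
Log2 fold change of each tested gene by list, filled where the adjusted p was under 0.05; the dashed line marks the median of all tested genes, -0.06. CCN2, FRMD6 and MERTK lie at the left end of their lists and IGFBP3 at the right end of the target signature, and 11 of 12 proliferation genes are filled on the negative side.

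The 3 genes whose pattern over the 6 libraries was closest to that of CCN2, by the root mean square distance of mean-centred log2(TPM + 1) values, were TNIP1 (distance 0.0230), CAPN2 (0.0245) and TXNRD1 (0.0249). Their log2 fold changes were -0.79, -0.76 and -0.84, values near that of CCN2 because the genes were picked for this closeness. The levels of these 3 genes in the controls were 154.4 ± 1.92, 309.8 ± 1.06 and 207.9 ± 4.16 TPM.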

How the data were processed

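TPM was computed by the authors for 61731 genes and loci and deposited as 1 table with 2 decimals. The submitters' processing notes name fastp, RSEM and the build GRCh38.p13, without versions. The aligner, the annotation and the strand setting are not given in the sources used here. The paper names a TruSeq kit and TRIzol, the labels a SMARTer kit and an RNeasy kit. TPM moves with the most abundant genes of a library and keeps no depth, so no counting error is given. Numbers in the labels were read as replicate numbers, but in KD they might mark different knockdown sequences. All 6 columns matched a sample by title, and 0 were left without one. Of 61541 Ensembl identifiers, 61369 had a symbol. Gene coordinates came from GENCODE 29 (GRCh38) and promoter sequences from RefSeq (GRCh38.p14).

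For 13722 genes averaging 1 TPM or more, log2(TPM + 1) was fitted in R 4.3.3 by limma 3.58.1 (lmFit, eBayes with trend) on group alone. Every adjusted p-value of a gene is limma's, by Benjamini-Hochberg. Ratios within libraries were tested by exact permutation and adjusted over 6 measures. Named genes were the members, up to 3 changed genes per direction in each pathway list, the paralogs in the ratios, and the 3 genes nearest to the most changed member. The members and lists were chosen with earlier results of these data known. The ratio of AXL to CCN1 and the values of CCN4 were added after the values were seen. Alternatives were the pseudocount, the limit on low values, the scaling, the trend, the replicate number as a term, and each library left out in turn.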

Additional observations from a re-analysis of the deposited data

How the results depend on the processing

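Of the tested members, CCN2, AMOTL2 and CCN1 were lower past the threshold in all 15 alternative fits and no tested member or named pathway gene changed sign in any of them. The number of members lower past the threshold was 4, and 3 or 4 in the 15 fits, and it was 0 with a log2 fold change limit of 1. Over all tested genes the share lower ran from 8.71% with no limit on low values to 30.6% with a limit of 5 TPM. The number higher was 0. It was 1 with a pseudocount of 0.1, of 0.5 or a limit of 5 TPM, and 3 with median-of-ratios scaling or quantile normalization. In these fits, in that order, 12.2%, 12.1%, 15.2%, 16.8% and 16.3% of all tested genes were higher. The number of members higher was 0 to 1 over the fits that each left out a library, beside 9.71% to 10.7% of all tested genes. The median over the members moved from -0.14 to -0.0653 with no limit on low values, where ANKRD1 entered the fit, so that 1 more member was counted, and was -0.07 with median-of-ratios scaling and with quantile normalization. With the replicate number as a term (replicate block), 3 members were lower and 0 higher, YAP1 no longer passing (limma adjusted p = 0.0583). Of the pathway genes 12 were lower and 8 higher, with 5 Hippo kinases and adaptors lower. AMOTL1 was among the pathway genes that no longer passed (limma adjusted p = 0.0519). In that fit 19.2% of all tested genes were lower and 9.98% higher. For libraries with the same number, the correlation of their deviations from the group means was -0.02, 0.03 and 0.03. For libraries with different numbers it ran from -0.07 to 0.03. These values cannot show whether libraries with the same number shared a culture or preparation, which the labels do not state. The exact paired sign-flip permutation test of the ratios cannot go below p = 0.25 and gave no call, and the differences in the ratios kept their direction in all alternatives. The number of pathway genes lower past the threshold was 11 to 18 over all alternatives, and of those higher 7 to 12. The shares over all tested genes were 8.71% to 30.6% lower and 4.55% to 16.8% higher. ANKRD1 was too low for a usable comparison, and 3 libraries a group limit small changes such as those of YAP1, WWTR1, TEAD1 and AXL.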

Other observations

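Some genes of the lists lay under the limit for testing and showed values that did not overlap between the groups. In the pathway lists these were WWC1 and CCN5, both higher in KD. Among the marker lists, PDGFRA was lower, at 0.69, 0.37 and 0.97 TPM in NC and 0.16, 0.2 and 0.27 TPM in KD. LAPTM5 was also lower, and CDH1 was higher, at 0 TPM in every control and 0.02 to 0.11 TPM in KD. All were picked after their values were seen. The share without overlap over all genes under the limit was not computed. WWC1, which encodes KIBRA, an upstream adaptor of the Hippo kinases, was listed at 0.30, 0.32 and 0.10 TPM in NC and at 1.59, 1.19 and 1.37 TPM in the KD libraries. In the limma fit with no limit on low values the log2 fold change of WWC1 was 0.94 (adjusted p = 0.00555). Of 15 Hippo kinases and adaptors in that fit, 5 were lower and WWC1 was the 1 higher. Over all 30412 genes in it, 8.71% were lower and 4.55% higher. CCN5, a CCN family gene whose product lacks the C-terminal domain of its relatives, was 0.10, 0.14 and 0.05 TPM in NC and 0.89, 0.53 and 0.95 TPM in the KD libraries, with a log2 fold change of 0.70 in that fit (adjusted p = 0.0112), while CCN1, CCN2 and CCN3 fell.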
